A study of Mus musculus with 2 samples.

Results

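The Hox genes of intestinal stroma were described by paralog number across the cell types of 2 lamina propria libraries. The members were all genes whose symbol is Hox followed by the letter of a cluster (a, b, c or d) and a paralog number. This rule found 40 of 31053 gene entries, which carry 39 symbols because Hoxd4 is listed under 2 gene identifiers (ENSMUSG00000101174 and ENSMUSG00000115956). The rule used symbols only and no measured value.

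The libraries hold cells of the intestinal lamina propria of C57BL/6 mice at 11 weeks of age, sorted as DAPI-, Ter119-, Epcam- and CD45- and run on the 10x Chromium 3′ platform (v3 reagents). The library ApcMin came from ApcMin/+;Lef1 +/+ mice, and the library VApcMinL from mice of the genotype ApcMin/+;Lef1 fl/fl; Villin-Cre. The series was made to follow the stroma of ApcMin mice when Lef1, a transcription factor of the Wnt pathway, is deleted from the gut epithelium. Villin drives Cre in intestinal epithelial cells, so the sorted stromal cells are not the cells in which Lef1 is deleted, and the Apc allele is carried by both groups. There was 1 library per genotype and the number of mice behind each is not given, so no spread between replicates exists and no test was run. All intervals are 95% intervals and cover counting error only.

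The ApcMin library held 93203061 unique molecular identifiers (UMIs), of which 83.6% lay in the 6599 barcodes kept as cells, with a median of 10849 UMIs. The VApcMinL library held 101609269 UMIs, of which 74.4% lay in 6569 cells, with a median of 9111 UMIs. A barcode was kept with at least 3000 UMIs and at most 20% mitochondrial UMIs, a limit that left out 75 barcodes of ApcMin and 531 of VApcMinL. Levels are given in CPM, the UMIs of a gene over all UMIs of a cell class on the usual scale of this unit. They were not divided by gene length, because each molecule gives a single 3′ tag. The libraries shared 18 cell barcodes, 0.274% of the smaller library. Lef1 was counted with 22 UMIs in epithelial-like cells of ApcMin, 7.56 CPM (4.74 to 11.5), and with 29 in those of VApcMinL, 1.95 CPM (1.30 to 2.79). In fibroblast-like cells Lef1 had 3 UMIs in ApcMin and 11 in VApcMinL. A 3′ tag can lie outside the deleted part of a gene, so these counts do not check the deletion.

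Hox genes encode homeodomain transcription factors that give cells their position along the head-to-tail axis of the embryo. They lie in a row within each cluster, and genes of low paralog number are switched on earlier and nearer the head than genes of high paralog number. The gut mesenchyme keeps a Hox pattern of this kind, in which genes of high paralog number mark the hindgut, and Pbx and Meis proteins bind DNA together with Hox proteins.

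The Hoxa cluster has 11 genes over 105.3 kb of chromosome 6, Hoxb 10 genes over 173.9 kb of chromosome 11, Hoxc 9 genes over 115.8 kb of chromosome 15, and Hoxd 9 genes over 96.83 kb of chromosome 2 (GRCm38). Paralogs 1 to 3 are called anterior here (8 entries), 4 to 8 central (16 entries) and 9 to 13 posterior (16 entries). In the annotation, 15 of the 40 entries overlap another gene on the same strand, among them Hoxa5, Hoxc8, Hoxa9 and Hoxd4, so a part of their UMIs could belong to a neighbour.

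Fibroblast-like cells carried most Hox RNA, and nearly all of it came from the anterior and central genes. In ApcMin, 3155 fibroblast-like cells held 16516 Hox UMIs, 378 CPM (372 to 384). In VApcMinL, 3484 fibroblast-like cells held 17537 Hox UMIs, 447 CPM (441 to 454). The mean paralog number of these UMIs was 4.29 (4.27 to 4.32) in ApcMin and 4.29 (4.27 to 4.31) in VApcMinL. Posterior genes gave 32 UMIs or 0.194% of the Hox UMIs (0.133 to 0.273) in ApcMin, and 19 UMIs or 0.108% (0.0652 to 0.169) in VApcMinL. The fibroblast-like stroma of both libraries thus had the same centre of expression along the clusters, with almost no RNA past paralog 8.

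Summed over the clusters, the level climbed from paralog 2 to paralog 5 and declined beyond it in each library. The sums cover different numbers of entries and are not levels per gene. Paralogs 2, 3, 4 and 5 have 2, 3, 5 and 3 entries, and paralogs 6, 7, 8 and 9 have 3, 2, 3 and 4. In ApcMin the sums were 49.2 CPM for paralog 2, 60.1 for paralog 3, 92.98 for paralog 4 and 115 for paralog 5. From there they were 25.8 for paralog 6, 20.1 for paralog 7, 11.1 for paralog 8 and 0.618 for paralog 9. In VApcMinL the corresponding sums were 53.0, 71.5, 113 and 138 CPM for paralogs 2 to 5, and 32.5, 22.8, 11.3 and 0.357 CPM for paralogs 6 to 9. As a ratio of neighbouring sums from paralog 5 to paralog 10, the step from paralog 8 to paralog 9 was the largest in both libraries. Hoxb held 48.7% of the Hox UMIs in ApcMin and 46.8% in VApcMinL, Hoxa 37.5% and 39.5%, Hoxc 12.7% and 12.5%, and Hoxd 1.07% and 1.17%.

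Each cluster had its own expressed range. A gene was counted as over the floor when it had more than 3 UMIs in a library. Hoxa was over the floor up to Hoxa7 in both libraries, with the highest level at Hoxa5. Hoxb was over the floor from Hoxb1 to Hoxb9 (9 genes) in both libraries, with the highest level at Hoxb4. Hoxc began at Hoxc4, its highest gene, and reached Hoxc9 in ApcMin (5 genes) and Hoxc8 in VApcMinL (4 genes). Hoxd was over the floor only at Hoxd8 and Hoxd9, so the anterior Hoxd genes were nearly silent in cells whose anterior Hoxa and Hoxb genes were on.

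**Figure D1:**
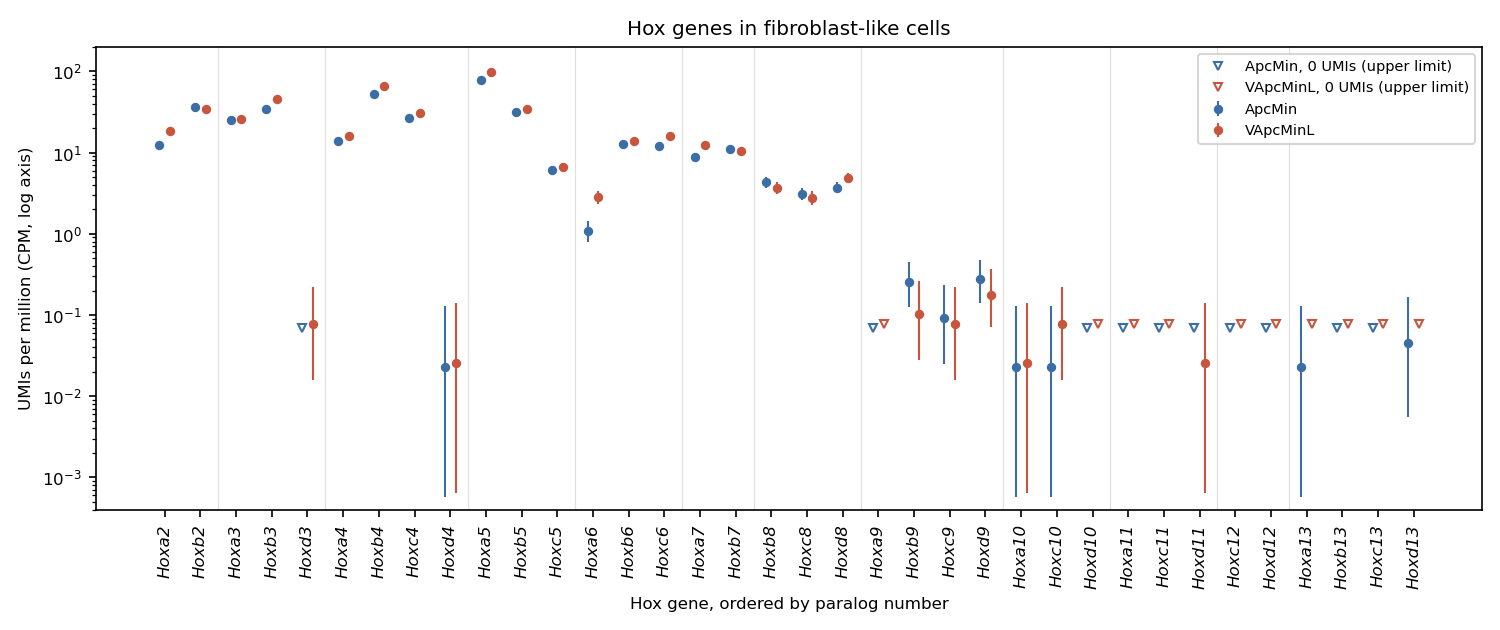
Level of Hox genes of paralogs 2 to 13 in fibroblast-like cells of ApcMin (blue) and VApcMinL (red), in CPM on a log axis, ordered by paralog number; Hoxd4 is drawn under its first identifier. Points are sums over cells, bars are exact Poisson 95% intervals and open triangles are the upper limits of genes with 0 UMIs; both libraries peak at Hoxa5 (77.8 and 97.4 CPM) and drop after paralog 8.

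Among the anterior genes, Hoxb2, which patterns the hindbrain and the facial nerve, had 36.6 CPM (34.9 to 38.5) in ApcMin and 34.7 (32.9 to 36.6) in VApcMinL. Hoxb3, another hindbrain gene, had 34.8 CPM (33.0 to 36.6) in ApcMin and 45.2 (43.1 to 47.3) in VApcMinL. Hoxa3, needed for the thymus and parathyroid, had 25.3 CPM (23.8 to 26.8) in ApcMin and 26.2 (24.6 to 27.9) in VApcMinL. These 3 genes made up most of the anterior RNA. Hoxa2, which sets the identity of the second pharyngeal arch, had 12.5 CPM (11.5 to 13.6) in ApcMin and 18.3 (17.0 to 19.7) in VApcMinL. Hoxb1, the marker of a single hindbrain segment, had 7 UMIs in ApcMin and 12 in VApcMinL.

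The central genes held the highest levels. Hoxa5, which shapes the lung, the stomach and the neck vertebrae and whose identifier is ENSMUSG00000038253, had 77.8 CPM (75.2 to 80.5) in ApcMin and 97.4 (94.4 to 101) in VApcMinL, a ratio of 1.25 (1.20 to 1.31). Hoxb4, known for the expansion of blood stem cells (ENSMUSG00000038692), had 52.2 CPM (50.1 to 54.4) in ApcMin and 66.9 (64.3 to 69.5) in VApcMinL, a ratio of 1.28 (1.21 to 1.36). The pair led their clusters in both libraries. Hoxb5, expressed in the neural crest that colonises the gut, had 31.6 CPM (30.0 to 33.3) in ApcMin and 34.3 (32.5 to 36.2) in VApcMinL. Hoxc4 had 26.9 CPM (25.3 to 28.4) in ApcMin and 30.5 (28.8 to 32.3) in VApcMinL. Hoxa4, a gene of the neck vertebrae, had 13.9 CPM (12.8 to 15.1) in ApcMin and 15.9 (14.7 to 17.2) in VApcMinL. The intervals of the libraries overlapped for Hoxb5 and Hoxa4 and not for Hoxa5, Hoxb4 or Hoxc4. The share of all genes tested whose intervals lay apart is not given, so nothing particular to these genes follows. Without cluster 2 the sign turned for Hoxc4 (log2 ratio -0.14) and Hoxa4 (-0.0510), and with clusters at equal weight for Hoxa4 (-0.15). Within cluster 0 Hoxc4 had 29.1 CPM in ApcMin and 23.6 in VApcMinL.

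Further along, the tested genes lay between 2.75 and 15.8 CPM. Hoxb6 had 12.8 CPM (11.8 to 13.9) in ApcMin and 13.9 (12.8 to 15.1) in VApcMinL. Hoxc6, a gene of the thoracic skeleton, had 11.9 CPM (10.9 to 13.01) in ApcMin and 15.8 (14.6 to 17.1) in VApcMinL. Hoxb7 had 11.2 CPM (10.3 to 12.3) in ApcMin and 10.5 (9.54 to 11.6) in VApcMinL. Hoxb7 was thus near the same level in both libraries. Hoxc6 stood higher in VApcMinL over the class, and without cluster 2 its sign turned (log2 ratio -0.17), with 12.0 CPM in ApcMin and 9.53 in VApcMinL within cluster 0. Hoxa7, a gene of the trunk vertebrae, had 8.90 CPM (8.04 to 9.83) in ApcMin and 12.3 (11.2 to 13.4) in VApcMinL. Hoxc5 had 6.06 CPM (5.35 to 6.84) in ApcMin and 6.58 (5.80 to 7.44) in VApcMinL. Hoxb8, which also acts in myeloid progenitors, had 4.30 CPM (3.71 to 4.96) in ApcMin and 3.65 (3.07 to 4.30) in VApcMinL. None of these ratios reached 2. Hoxd8, which is known to hold lymphatic endothelial identity (ENSMUSG00000027102), had 3.68 CPM (3.14 to 4.30) in ApcMin and 4.90 (4.23 to 5.64) in VApcMinL. Hoxc8, which specifies motor neurons of the forelimb level, had 3.09 CPM (2.59 to 3.66) in ApcMin and 2.75 (2.26 to 3.33) in VApcMinL. Hoxa6 lay below the 200 UMIs asked of a tested gene, with 1.08 CPM in ApcMin and 2.81 in VApcMinL, a ratio of 2.61 (1.84 to 3.76) from 47 and 110 UMIs.

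The remaining members were at the edge of detection in fibroblast-like cells. Hoxd9, a gene of the lumbar spine and hindlimb, had 12 UMIs in 10 cells of ApcMin and 7 in 6 cells of VApcMinL. Hoxb9, which shapes the ribs, had 11 UMIs in 7 cells of ApcMin and 4 in 4 cells of VApcMinL. Hoxc9 had 4 UMIs in ApcMin and 3 in VApcMinL. Each other member had 3 UMIs or fewer per library: Hoxc10 1 and 3, Hoxa10 1 and 1, Hoxd3 0 and 3, Hoxd11 0 and 1, and Hoxd4 1 and 1 under each identifier. Hoxa13, a gene of the hindgut and the digits, had 1 UMI in ApcMin and 0 in VApcMinL, and Hoxd13, active in the same places, had 2 and 0. The other members, Hoxd1, Hoxa9, Hoxd10, Hoxa11, Hoxc11, Hoxc12, Hoxd12, Hoxb13 and Hoxc13, had 0 UMIs in both libraries, which allows up to 0.0686 CPM in ApcMin and 0.0765 CPM in VApcMinL. Each gene of paralog 13 thus had 2 UMIs or fewer in the fibroblast-like cells of either library.

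Promoter windows of 4 members are shown because Hoxb4, Hoxa5 and Hoxd8 led their clusters in fibroblast-like cells, while Hoxa9 had no UMI there; the window of Hoxc4, which led Hoxc, is not shown. The windows are the 250 bases before the start of the gene in RefSeq, build GRCm38.p6, on the strand of the gene: Hoxb4 chr11:96318017-96318266 (+), Hoxa5 chr6:52204588-52204837 (-), Hoxd8 chr2:74704365-74704614 (+) and Hoxa9 chr6:52227371-52227620 (-). Capitals mark matches of either strand to TGATNNAT (a composite Pbx-Hox element), TTTATG (a Cdx element) or AGGTCA (the core element of retinoic acid receptors).
Hoxb4: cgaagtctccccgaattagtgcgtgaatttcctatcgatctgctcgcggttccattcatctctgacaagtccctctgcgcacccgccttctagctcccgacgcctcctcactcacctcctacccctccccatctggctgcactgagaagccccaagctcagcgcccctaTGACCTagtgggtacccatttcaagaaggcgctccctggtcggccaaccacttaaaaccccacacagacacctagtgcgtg
Hoxa5: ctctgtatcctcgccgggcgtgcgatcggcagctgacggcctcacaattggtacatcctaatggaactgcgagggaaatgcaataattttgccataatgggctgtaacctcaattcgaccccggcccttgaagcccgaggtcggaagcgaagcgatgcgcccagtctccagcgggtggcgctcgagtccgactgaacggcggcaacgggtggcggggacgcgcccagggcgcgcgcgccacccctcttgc
Hoxd8: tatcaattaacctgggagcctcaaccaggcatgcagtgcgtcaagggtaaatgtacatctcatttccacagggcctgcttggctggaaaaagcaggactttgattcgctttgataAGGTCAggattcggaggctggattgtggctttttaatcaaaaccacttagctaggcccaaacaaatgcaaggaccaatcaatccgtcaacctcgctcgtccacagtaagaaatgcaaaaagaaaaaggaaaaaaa
Hoxa9: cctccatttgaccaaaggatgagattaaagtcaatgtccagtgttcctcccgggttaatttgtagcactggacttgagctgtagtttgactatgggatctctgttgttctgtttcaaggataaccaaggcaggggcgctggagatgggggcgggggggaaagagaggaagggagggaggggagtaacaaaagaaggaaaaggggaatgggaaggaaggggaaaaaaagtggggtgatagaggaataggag
The windows of Hoxb4 and Hoxd8 each held 1 receptor element, and those of Hoxa5 and Hoxa9 held none of the 3 motifs. The GC content was 58% with 14 CpG pairs for Hoxb4, 63.6% with 28 for Hoxa5, 44.4% with 6 for Hoxd8 and 49.6% with 3 for Hoxa9. Of the 39 symbols, 22 matched a promoter in the table, with 24 windows in all. Over these 24, the median GC content was 58.6% (40.4 to 80) and the median number of CpG pairs 12.5, against 52.4% and 6 over all 32851 promoters. The Pbx-Hox letters were in 4 of the 24 Hox windows and in 7.68% of all promoters, the Cdx letters in 5 and 10.8%, and the receptor letters in 6 and 14.02%. A match describes letters in a window and says nothing of binding.

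The comparison between the genotypes asks whether the positional code of the stroma differs when Lef1 is deleted from the epithelium. No Hox gene passed the fold rule in fibroblast-like cells. The rule was a CPM at least 2-fold higher or lower in VApcMinL among genes with at least 200 UMIs over both libraries. Of the 18 Hox genes tested, 0 were higher and 0 lower, beside 2.5% higher and 0.866% lower among the 11552 genes tested. The median log2 ratio of the 18 genes was 0.19 (14 above 0 and 4 below), beside -0.00162 over all genes tested (5746 of 11552 above 0). The 4 genes below 0 were Hoxb2 with -0.08, Hoxb7 with -0.09, Hoxc8 with -0.16 and Hoxb8 with -0.24.

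By cluster, the medians were 0.40 for Hoxa (6 of 6 above 0), 0.12 for Hoxb (4 of 7), 0.15 for Hoxc (3 of 4) and 0.41 for the single Hoxd gene tested, Hoxd8, whose sign turned without cluster 2 (-0.0456). By position, the 5 anterior genes had a median of 0.38 and the 13 central genes 0.18, and no posterior gene had enough UMIs. The summed Hox level was 1.18 times as high in VApcMinL (1.16 to 1.21), a log2 ratio of 0.24. This ratio moved with the makeup of the class: with the 4 fibroblast-like clusters at equal weight it was 1.08, and without cluster 2 it was 1.02 (0.999 to 1.05). Without cluster 2 the median log2 ratio of the 17 tested genes of paralogs 2 to 8 was -0.11, with 6 genes above 0 and 11 below. The median and share over all genes without cluster 2 are not given, so this turn is not read as particular to Hox genes. The profile itself was shared to 94.4% between the libraries, as the sum over genes of the smaller of the 2 shares of Hox UMIs.

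The fibroblast-like class joined 4 clusters that were built without Hox genes and differed in Hox level. The cluster with the most fibroblast-like cells was cluster 0 (led by Pi16, Has1 and Mfap5) in ApcMin and cluster 2 (Adamdec1, Ereg and Fgfr2) in VApcMinL. Cluster 0 held 39.4% of the class in ApcMin and 27.0% in VApcMinL, and cluster 2 held 15.7% and 33.0%. All 4 were named from detection, with 10 or 11 of the 12 fibroblast markers detected and 2, 1, 0 and 1 of them among the leading genes of clusters 0, 2, 3 and 4. Cluster 3 (Col6a6, Lpl and Penk) held 27.6% and 20.2%, and cluster 4 (Grem1, Stc2 and Ackr4) 17.2% and 19.8%.

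Cluster 2 had the highest summed Hox level in both libraries, with 538.5 CPM (520.5 to 556.9) in ApcMin and 668.7 (653.6 to 684.1) in VApcMinL, a ratio of 1.24 (1.19 to 1.29). Cluster 0 had the lowest, with 322.6 CPM (314.6 to 330.8) in ApcMin and 337.6 (327.7 to 347.7) in VApcMinL, a ratio of 1.05 (1.01 to 1.09). Cluster 4 had 418.2 CPM in ApcMin and 384.3 in VApcMinL, a ratio of 0.919 (0.875 to 0.965), and cluster 3 had 351.7 and 371.2, a ratio of 1.06 (1.003 to 1.11). The ratio between libraries therefore lay above 1 in 3 clusters and below 1 in the other. Cluster 2 gave the highest level of 12 of the 18 tested genes in ApcMin and of 17 in VApcMinL. Mean paralog numbers were 4.51 and 4.48 in cluster 0, 4.28 and 4.27 in cluster 2, 4.11 and 4.16 in cluster 3, and 4.11 and 4.198 in cluster 4, for ApcMin and VApcMinL respectively. Cluster 0 thus leaned toward higher paralog numbers than the other 3 clusters in each library.

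Some single genes separated the clusters more than the sums did. Hoxa5 had 124 CPM in cluster 2 and 53.1 in cluster 0 of ApcMin, and 140.4 and 71.9 in VApcMinL. Hoxb4 had 78.0 CPM in cluster 2 and 36.4 in cluster 0 of ApcMin, and 97.3 and 45.1 in VApcMinL. Hoxb8 ran against this order, with 7.65 CPM in cluster 0 and 1.43 in cluster 2 of ApcMin, and 6.92 and 1.80 in VApcMinL. Hoxb8 was the only tested gene highest in cluster 0 in both libraries. Hoxd8 was low in cluster 4, with 0.256 CPM in ApcMin and 0.240 in VApcMinL, and higher in cluster 2, with 5.24 and 8.89. Hoxc8 was low in cluster 3, with 0.190 CPM in ApcMin and 0.446 in VApcMinL, and higher in cluster 2, with 5.56 and 5.39. Hoxc6 had 3.70 CPM in cluster 3 and 23.4 in cluster 2 of ApcMin, and 5.80 and 33.3 in VApcMinL. Hoxb5 was the most even gene in ApcMin, between 28.2 CPM in cluster 0 and 34.8 in cluster 2. The code thus varied within the class mainly at paralogs 6 to 8.

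**Figure D2:**
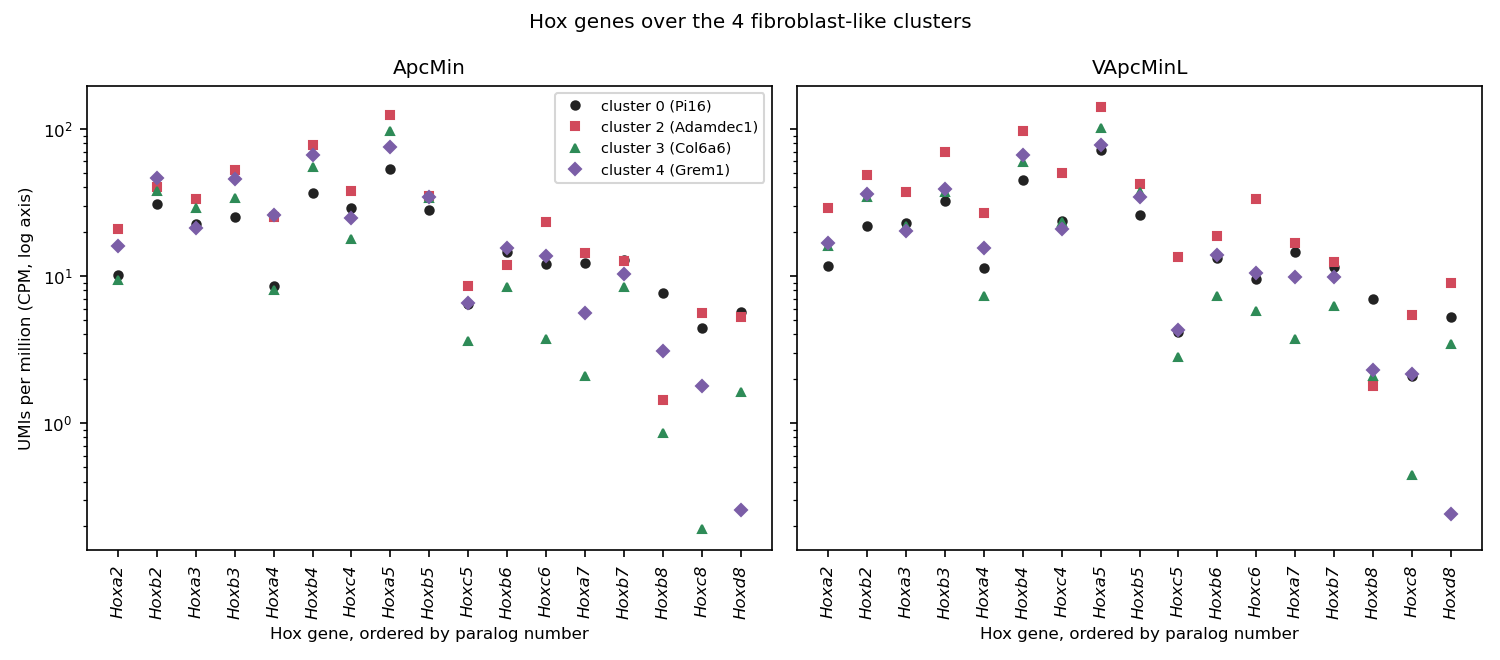
Level of Hox genes of paralogs 2 to 8 in each fibroblast-like cluster, in CPM on a log axis, for ApcMin (left) and VApcMinL (right). Each symbol is a cluster, named with a leading gene; cluster 2 is highest for most genes, Hoxa5 reaching 124 and 140.4 CPM there, and Hoxb8 is highest in cluster 0 in both libraries.

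Within clusters, among Hox genes with at least 50 UMIs over both libraries there, no ratio of VApcMinL to ApcMin exceeded 2. In cluster 0, Hoxa5 had the largest ratio, 1.35 (1.24 to 1.48), and Hoxc8 the smallest, 0.471 (0.294 to 0.735), from 84 UMIs in ApcMin and 27 in VApcMinL. In cluster 2, Hoxa6 had the largest, 1.98 (1.19 to 3.43), and Hoxc8 the smallest, 0.969 (0.628 to 1.51). In cluster 3, Hoxa2 had the largest, 1.70 (1.28 to 2.25), and Hoxb7 the smallest, 0.740 (0.5002 to 1.08). In cluster 4, Hoxa7 had the largest, 1.74 (1.20 to 2.58), and Hoxa4 the smallest, 0.601 (0.478 to 0.753). Hoxc8 in cluster 0 was thus the only one of these 8 values more than 2-fold apart between libraries. The number of genes higher in VApcMinL was 7 of 17 in cluster 0, 16 of 18 in cluster 2, 7 of 13 in cluster 3 and 4 of 14 in cluster 4. The share of all genes higher within each cluster is not given, so these counts are not read as particular to Hox genes.

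Hox UMIs were found in most fibroblast-like cells even after each cell was thinned to 3000 UMIs. The thinned share of cells with a Hox UMI was 62.2% (60.5 to 63.9) in ApcMin and 68.8% (67.2 to 70.3) in VApcMinL, and with all UMIs 94.6% and 94.3%, at median depths of 13343 and 10694.5 UMIs. No cell was too shallow to be thinned. In plasma-like cells, which are expected to hold little Hox RNA, the thinned share was 1.26% in ApcMin and 3.68% in VApcMinL (3.57% and 6.26% with all UMIs, at medians of 7250.5 and 4830 UMIs). In erythroid-like cells it was 0.733% and 1.65% (1.47% and 2.75% with all UMIs, at medians of 9401.5 and 7366.5 UMIs). Empty droplets, the barcodes ranked 45000 to 90000 by UMIs, held Hox RNA at 125 CPM (114 to 137) in ApcMin and 155 CPM (145 to 167) in VApcMinL. The share in fibroblast-like cells thus stood far above that of the cell types expected to lack Hox RNA.

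A thinned fibroblast-like cell showed on average 1.02 Hox genes in ApcMin and 1.22 in VApcMinL, and at most 6 and 7. With all UMIs the means were 3.46 and 3.32, and at most 14 genes were seen in a cell of either library. Anterior and central genes were seen in the same cells: 28.1% of thinned ApcMin cells had an anterior UMI, 49.2% a central UMI and 15.1% both, against 13.8% for the product of the shares. In VApcMinL the shares were 30.9%, 57.6% and 19.7%, against a product of 17.8%. Anterior and central genes were thus detected together slightly more often than the product of their shares. Posterior UMIs were in 24 ApcMin and 18 VApcMinL cells with all UMIs, and 24 and 16 of these also had a central UMI, as did 87.2% and 88.4% of all fibroblast-like cells.

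The UMIs of Hoxc8 were gathered in fewer cells, for their number, than those of any other tested Hox gene. The 135 Hoxc8 UMIs of ApcMin lay in 69 cells, where an even spread by depth gives 132, and the 108 of VApcMinL lay in 71 cells, where it gives 106. This is 52.4% and 67.0% of the even number, while the other 17 tested genes had between 74.8% and 94.3%. The split by Hoxc8 was chosen after this was seen. Hoxc8-positive cells were deeper, with a median of 16296 UMIs against 13301.5 in ApcMin and 11776 against 10680 in VApcMinL, and the part of depth in what follows was not tested.

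Cells with a Hoxc8 UMI had a code shifted toward higher paralog numbers. Without Hoxc8 itself, the mean paralog number was 4.84 (4.68 to 4.99) in Hoxc8-positive and 4.24 (4.22 to 4.27) in other fibroblast-like cells of ApcMin, and 4.60 (4.45 to 4.75) and 4.26 (4.24 to 4.28) in those of VApcMinL. The difference was also there within cluster 0 (4.99 and 4.43 in ApcMin, 4.92 and 4.45 in VApcMinL) and within cluster 2 (4.67 and 4.23, 4.62 and 4.22). Hoxc6 had 47.2 CPM in positive and 11.0 in other cells of ApcMin, a ratio of 4.30 (3.18 to 5.70), and 43.9 and 15.2 in VApcMinL, a ratio of 2.89 (2.01 to 4.02). Hoxa7 had 31.5 and 8.29 CPM in ApcMin, a ratio of 3.80 (2.62 to 5.36), and 38.0 and 11.7 in VApcMinL, a ratio of 3.24 (2.19 to 4.64). Hoxd8 had 16.6 and 3.34 CPM in ApcMin, a ratio of 4.98 (2.91 to 8.07), and 13.1 and 4.72 in VApcMinL, a ratio of 2.77 (1.36 to 5.07). These 3 genes lie in 3 different clusters, on 3 chromosomes. A shift was not particular to Hoxc8: without the gene of the split, the mean paralog number was 4.78 against 4.21 in ApcMin and 4.62 against 4.25 in VApcMinL for a split by Hoxb8, and 4.54 against 4.24 and 4.46 against 4.24 for a split by Hoxd8. Hoxa5 ran the other way, with 43.7 and 78.7 CPM in ApcMin, a ratio of 0.555 (0.411 to 0.734). In VApcMinL Hoxa5 had 79.5 and 97.8 CPM, a smaller difference whose interval is not given. Cluster 0 held 39 and cluster 2 held 19 of the 69 Hoxc8-positive cells of ApcMin. In VApcMinL they held 21 and 37 of 71. The values of single genes are over the whole class, and the part of cluster makeup in them was not tested. Hoxc5 overlaps Hoxc8 on the same strand, so the counts of neighbours within Hoxc are uncertain, which does not touch Hoxa7 and Hoxd8.

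**Figure D3:**
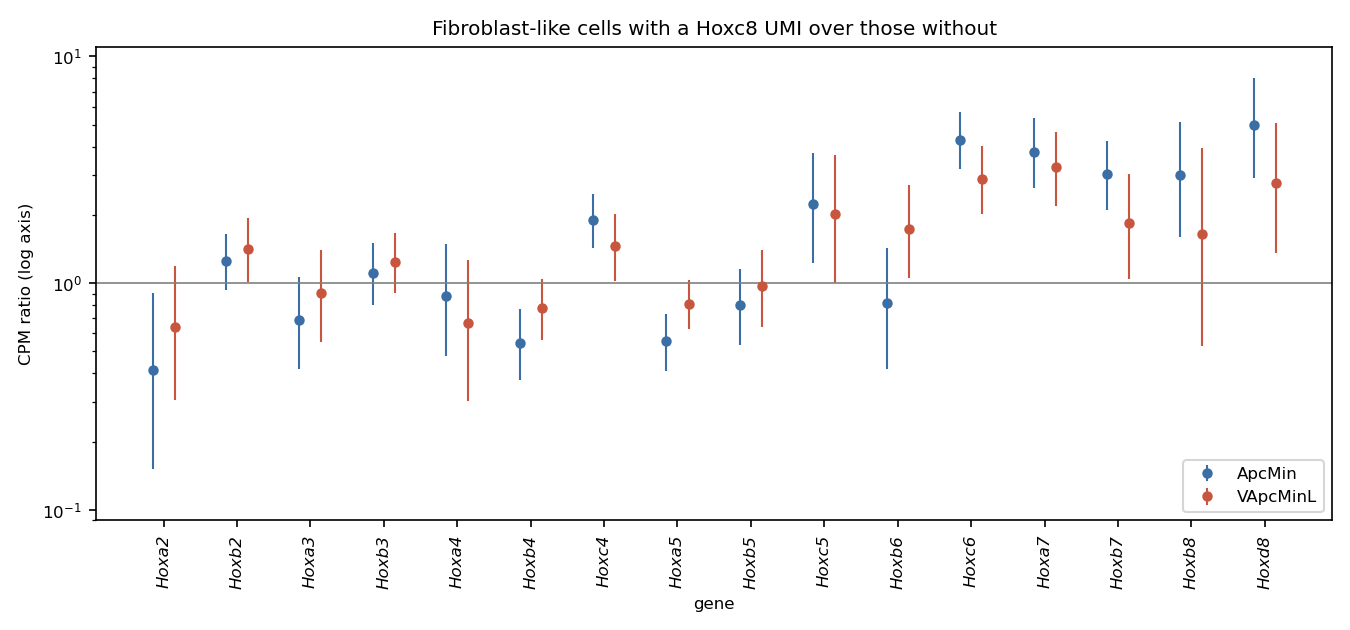
Ratio of CPM in fibroblast-like cells with a Hoxc8 UMI to those without, for other tested Hox genes of paralogs 2 to 8, on a log axis, in ApcMin (blue) and VApcMinL (red). Bars are exact conditional binomial 95% intervals and the line marks 1; Hoxc6, Hoxa7 and Hoxd8 lie above the line in both libraries.

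Barx1, a factor of the stomach mesenchyme, marked fibroblast-like cells with less Hox RNA. A Barx1 UMI was found in 576 fibroblast-like cells of ApcMin (18.3%) and in 37 of VApcMinL (1.06%). Hox RNA was at 287 CPM (275 to 299) in Barx1-positive and 398 (391 to 404) in other cells of ApcMin, and at 300.3 (253 to 354) and 449 (442 to 456) in those of VApcMinL. Their mean paralog number was 4.15 (4.09 to 4.21) against 4.31 in ApcMin and 4.02 (3.82 to 4.22) against 4.29 in VApcMinL. Within cluster 0 of ApcMin, Hox RNA was at 228 CPM (214 to 243) in the 279 Barx1-positive cells and 348 (339 to 358) in the rest. Barx1-positive cells thus had less Hox RNA, with a lower mean paralog number, in each library.

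Across cell classes, Hox RNA was high in all mesenchymal, endothelial and glial classes and low in blood cells. The sort was set to remove blood and epithelial cells, so the numbers of such cells say nothing of the tissue. Classes with fewer than 50 cells in a library are given as values and not compared between libraries. Smooth muscle-like cells (35 in ApcMin and 50 in VApcMinL), in which pericyte markers had a larger detection difference (62.3 points) than the smooth muscle markers that led (40.8), had 739.2 CPM (626.4 to 866.5) in ApcMin and 480.1 (411.2 to 557.2) in VApcMinL. Neuronal or glial-like cells (26 and 172) had 440 CPM (347 to 550.3) in ApcMin and 381 (346 to 420) in VApcMinL. Blood endothelial-like cells (124 and 484) had 335 CPM (301 to 372) in ApcMin and 358 (338 to 379) in VApcMinL, so their intervals overlapped.

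Endothelial cells had a higher mean paralog number and a larger posterior share than fibroblast-like cells. In lymphatic endothelial-like cells (38 in ApcMin and 175 in VApcMinL) Hox RNA was at 433 CPM (369 to 505) in ApcMin and 472 (436 to 509) in VApcMinL, with a mean paralog number of 6.25 (5.92 to 6.57) and 6.52 (6.37 to 6.68). Posterior genes made up 12.4% of their Hox UMIs (7.76 to 18.5) in ApcMin and 16.0% (13.3 to 19.0) in VApcMinL. These cells gave 12.8% of all posterior Hox UMIs of the kept ApcMin cells and 42.4% of those of VApcMinL, from 0.477% and 1.82% of all UMIs.

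Hoxa7 was the highest gene of lymphatic endothelial-like cells, with 113 CPM (81.4 to 153) in ApcMin and 94.3 (78.8 to 112) in VApcMinL, found in 24 of 38 and in 76 of 175 cells. Hoxd8 had 48.4 CPM (28.7 to 76.5) in ApcMin and 80.6 (66.3 to 97.0) in VApcMinL. Hoxd9 had 45.7 CPM (26.6 to 73.2) in ApcMin and 61.7 (49.3 to 76.3) in VApcMinL, and was found in 12 of 38 and 55 of 175 cells. Both Hoxd genes thus stood more than 10 times above their fibroblast-like level in each library. Hoxd10 had 1 UMI in ApcMin and 15 in VApcMinL, and Hoxb7 had 40.3 CPM in ApcMin and 38.5 in VApcMinL. Hoxd held 23.6% of the Hox UMIs in ApcMin and 33.7% in VApcMinL, while Hoxc held 1.86% and 0.769%. Hoxd thus held a larger and Hoxc a smaller share of the Hox UMIs than in fibroblast-like cells. The same was so in blood endothelial-like cells, whose shares are given below.

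Blood endothelial-like cells lay between these patterns. Their mean paralog number was 5.06 (4.85 to 5.27) in ApcMin and 4.93 (4.82 to 5.04) in VApcMinL, and posterior genes gave 4.58% and 4.39% of their Hox UMIs. Hoxb4 had 66.3 CPM (51.6 to 83.9) in ApcMin and 76.5 (67.4 to 86.6) in VApcMinL. Hoxa5 had 62.5 CPM (48.2 to 79.6) in ApcMin and 52.9 (45.4 to 61.4) in VApcMinL. Hoxd8 had 40.4 CPM (29.1 to 54.6) in ApcMin and 31.5 (25.7 to 38.1) in VApcMinL. In this class Hoxd8 stood more than 6 times above its fibroblast-like level in each library and Hoxa5 of VApcMinL below it, while the intervals of Hoxb4 in ApcMin and VApcMinL and of Hoxa5 in ApcMin overlapped those of fibroblast-like cells. Hoxb9 had 10.6 CPM (5.28 to 18.9) in ApcMin and 9.98 (6.87 to 14.02) in VApcMinL. Hoxd held 13.5% of the Hox UMIs in ApcMin and 11.4% in VApcMinL, and Hoxc 2.58% and 1.77%. The Hox profile was shared to 88.7% between the libraries in this class.

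**Figure D4:**
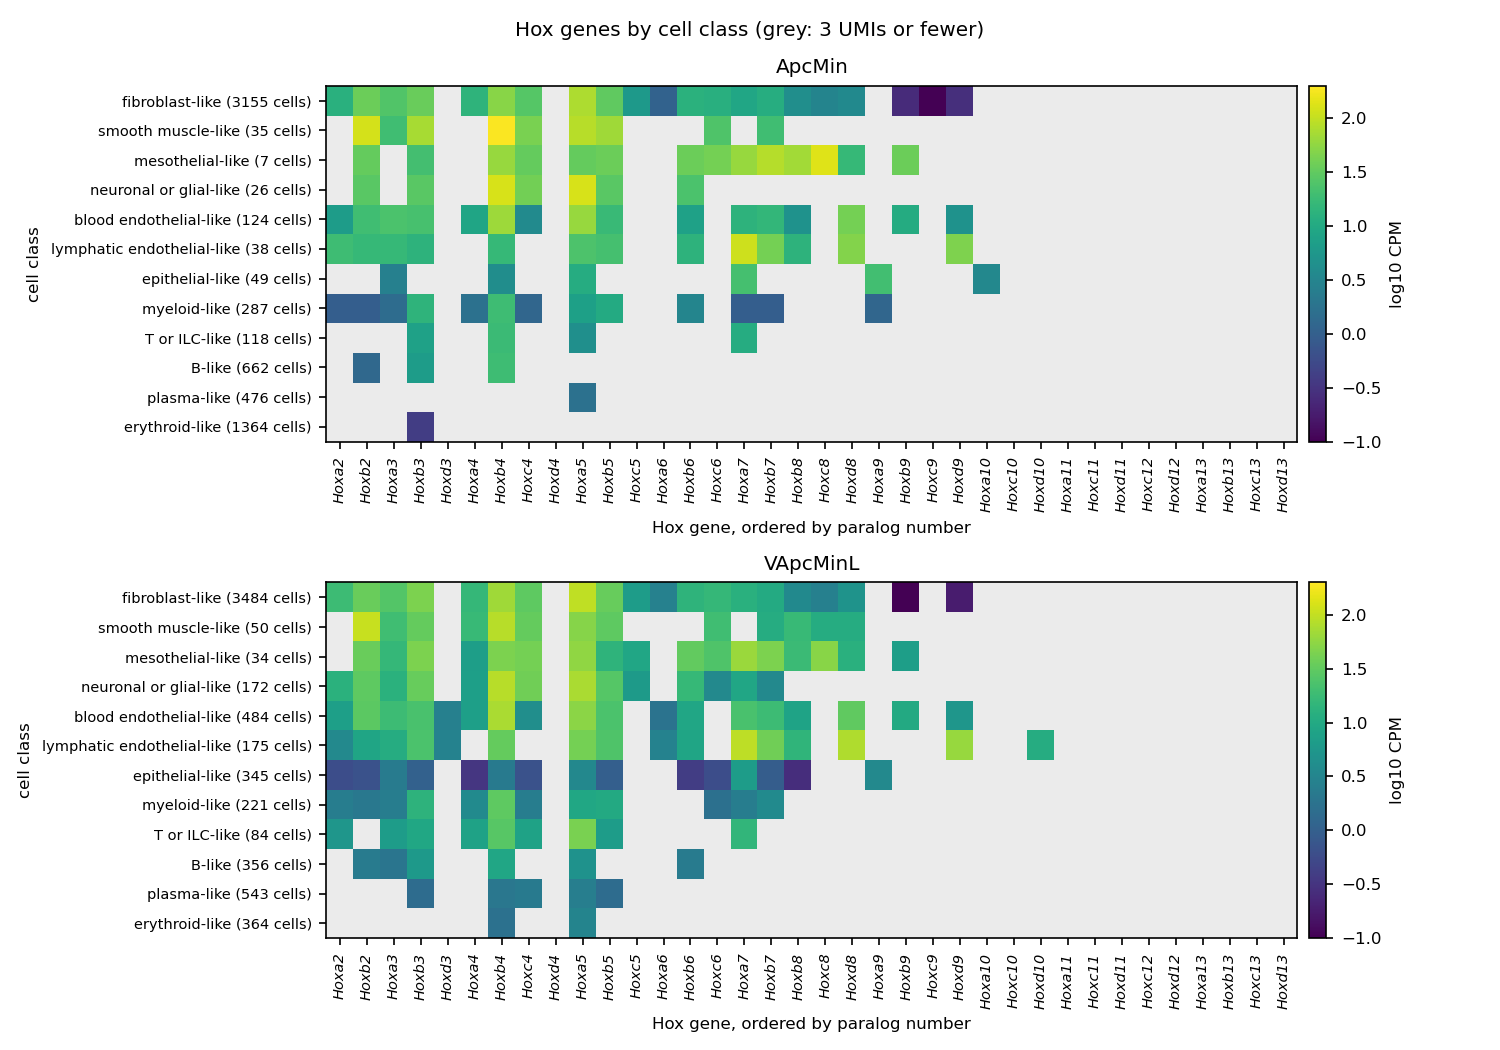
Level of Hox genes of paralogs 2 to 13 in each cell class, as log10 of CPM, for ApcMin (top) and VApcMinL (bottom), with genes ordered by paralog number; grey marks 3 UMIs or fewer, and cell numbers stand beside the class names. Lymphatic endothelial-like cells reach Hoxd9 at 45.7 and 61.7 CPM, mesothelial-like cells reach Hoxc8 and Hoxb9, and plasma-like and erythroid-like cells are nearly blank.

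Mesothelial-like cells, only 7 in ApcMin and 34 in VApcMinL, had Hoxc8 among their highest Hox genes. Their Hox level was 734.6 CPM (631.2 to 850.1) in ApcMin and 535.6 (476.9 to 599.5) in VApcMinL, and the mean paralog number 6.29 (6.02 to 6.57) and 5.40 (5.19 to 5.62). Hoxc8 had 139 CPM (96.1 to 194) in ApcMin, the highest Hox gene there, and 51.4 (34.4 to 73.9) in VApcMinL. Hoxb7 had 85.7 CPM (53.0 to 131) in ApcMin and 44.3 (28.7 to 65.4) in VApcMinL. Hoxb9 had 9 UMIs in 3 cells of ApcMin and 4 in 3 cells of VApcMinL. In ApcMin a barcode of 103393 UMIs, of 245042 in the class, held 6 of these 9 and 14 of the 34 Hoxc8 UMIs. Without it Hoxb9 had 21.2 CPM (4.37 to 61.9), against 36.7 with it, and Hoxc8 had 141 (86.2 to 218). Hoxc8 thus stood more than 10 times above its fibroblast-like level in each library.

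Neuronal or glial-like and smooth muscle-like cells had mean paralog numbers near those of fibroblast-like cells. In neuronal or glial-like cells Hoxb4 had 126 CPM (78.8 to 190.5) in ApcMin and 89.5 (72.7 to 109) in VApcMinL. Hoxa5 had 126 CPM (78.8 to 190.5) in ApcMin and 75.9 (60.6 to 94.0) in VApcMinL. Their mean paralog number was 4.403 in ApcMin and 4.201 in VApcMinL, and posterior UMIs numbered 0 and 3. In smooth muscle-like cells Hoxb4 had 189.7 CPM (135 to 259) in ApcMin and 88.8 (60.7 to 125) in VApcMinL, and Hoxb2 had 122 (78.7 to 179) and 105 (74.6 to 145). Their mean paralog number was 4.11 and 4.197, and posterior UMIs numbered 3, or 1.97% (0.409 to 5.66), and 2, or 1.16% (0.140 to 4.11).

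Blood cells held little Hox RNA, and in myeloid-like and B-like cells it came mainly from Hoxb. Myeloid-like cells had 65.7 CPM (58.1 to 74.0) in ApcMin and 87.0 (75.6 to 99.6) in VApcMinL, with Hoxb at 73.7% and 69.9% of the Hox UMIs. B-like cells had 30.3 CPM (25.1 to 36.3) in ApcMin and 33.3 (26.0 to 42.1) in VApcMinL, with Hoxb4, a gene of blood progenitors, at 18.9 CPM (14.8 to 23.8) and 9.04 (5.44 to 14.1). T or ILC-like cells had 62.5 CPM (47.3 to 81.0) in ApcMin and 146 (120 to 176) in VApcMinL. Without the highest doublet scores this class had 39.3 CPM (26.5 to 56.1) in ApcMin and 25.2 (12.6 to 45.1) in VApcMinL, 17 and 20 barcodes fewer. Plasma-like cells had 6.08 CPM (3.94 to 8.98) in ApcMin and 15.4 (11.5 to 20.1) in VApcMinL, and erythroid-like cells 1.60 (0.974 to 2.46) and 7.59 (4.76 to 11.5). Without the highest doublet scores plasma-like cells had 3.36 CPM in ApcMin and 10.6 in VApcMinL. Subtracting free RNA also lowered both classes, as given under the processing. All 5 blood classes of ApcMin were thus under the level of its empty droplets.

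Epithelial-like cells, which the sort should remove, had most of their Hox RNA in Hoxa, and much of it in single barcodes. The class held 49 cells of ApcMin, with 69.8 CPM (60.5 to 80.1), and 345 cells of VApcMinL, with 25.6 (23.1 to 28.3), at median depths of 44634 and 41906 UMIs. Hoxa held 88.2% and 68.0% of the Hox UMIs, and posterior genes 33.5% and 14.4%. Hoxa7 had 21.0 CPM (16.0 to 26.9) in ApcMin and 6.57 (5.34 to 8.01) in VApcMinL. Hoxa9, a gene best known from blood progenitors and leukaemia (ENSMUSG00000038227), had 19.9 CPM (15.1 to 25.8) in ApcMin and 3.62 (2.72 to 4.73) in VApcMinL. The barcode with the most Hox UMIs held 129 of the 203 of ApcMin and 112 of the 381 of VApcMinL. Without it the Hox level was 27.9 CPM (21.9 to 35.1) and 18.5 (16.4 to 20.9), the share of Hoxa 73.0% and 54.6%, and the posterior share 17.6% (9.70 to 28.2) and 7.06% (4.31 to 10.8). In ApcMin, 47 of the 58 Hoxa9 UMIs and 50 of the 61 Hoxa7 UMIs lay in a barcode of 259029 UMIs, and in VApcMinL 36 of 54 and 61 of 98 lay in a barcode of 396545 UMIs. Without these barcodes Hoxa9 had 4.15 CPM (2.07 to 7.43) in ApcMin and 1.24 (0.735 to 1.96) in VApcMinL, and Hoxa7 had 4.15 and 2.55.

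Unnamed clusters held 3.76% of the ApcMin and 3.67% of the VApcMinL cells. Cluster 10 (led by Scg2 and Thbs2; 171 and 143 cells) had 541.7 Hox CPM (512.7 to 571.8) in ApcMin and 698.1 (658.9 to 739.1) in VApcMinL, as high as the highest fibroblast-like cluster. Cluster 14 (Bmp5 and Bmp7; 31 and 76 cells) had 229.6 CPM (185.1 to 281.6) in ApcMin and 474.2 (426.9 to 525.2) in VApcMinL, and cluster 16, a mixture, had 276.3 and 304.0. In cluster 10, Hoxb5 had 58.4 CPM (49.2 to 68.9) in ApcMin and 126 (109 to 144) in VApcMinL, and Hoxa5 68.3 (58.3 to 79.6) and 137.5 (120 to 156). By point value, both genes stood just over 2-fold higher in VApcMinL in this cluster. The share of all genes past 2-fold there is not given. A pancreatic acinar-like cluster of 10 and 16 cells had 0 Hox UMIs in ApcMin, which allows up to 35.6 CPM, and 14 in VApcMinL.

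Empty droplets are a measure of free RNA, and posterior genes had a larger share of their Hox UMIs than of those of kept cells in both libraries. Posterior genes gave 2.65% of the empty-droplet Hox UMIs in ApcMin (1.38 to 4.58) and 5.61% in VApcMinL (4.12 to 7.44), against 0.790% and 1.08% in the kept cells. Hoxc8 was at 7.37 CPM (5.21 to 10.1) in the empty droplets of VApcMinL, 3.20 times its level in kept cells, and at 1.38 CPM (0.449 to 3.23) in those of ApcMin. Hoxc9, a gene of the thoracic and lumbar trunk, was at 3.102 CPM (1.77 to 5.04) from 16 UMIs in VApcMinL, with 4 UMIs in kept cells, and had 2 UMIs in the empty droplets of ApcMin. Hoxa10 was at 1.11 CPM (0.302 to 2.83) from 4 UMIs in the empty droplets of ApcMin and at 0.141 (0.0705 to 0.253) in kept cells. The cells that gave these UMIs were not identified. All 5 fat cell markers were found, and their summed level in empty droplets was 4.70 CPM in ApcMin and 126 CPM in VApcMinL. In fibroblast-like cells it was 2.36 CPM (highest Car3) and 236 CPM (highest Cfd). The part of fat cells in the Hoxc values was not tested.

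**Figure D5:**
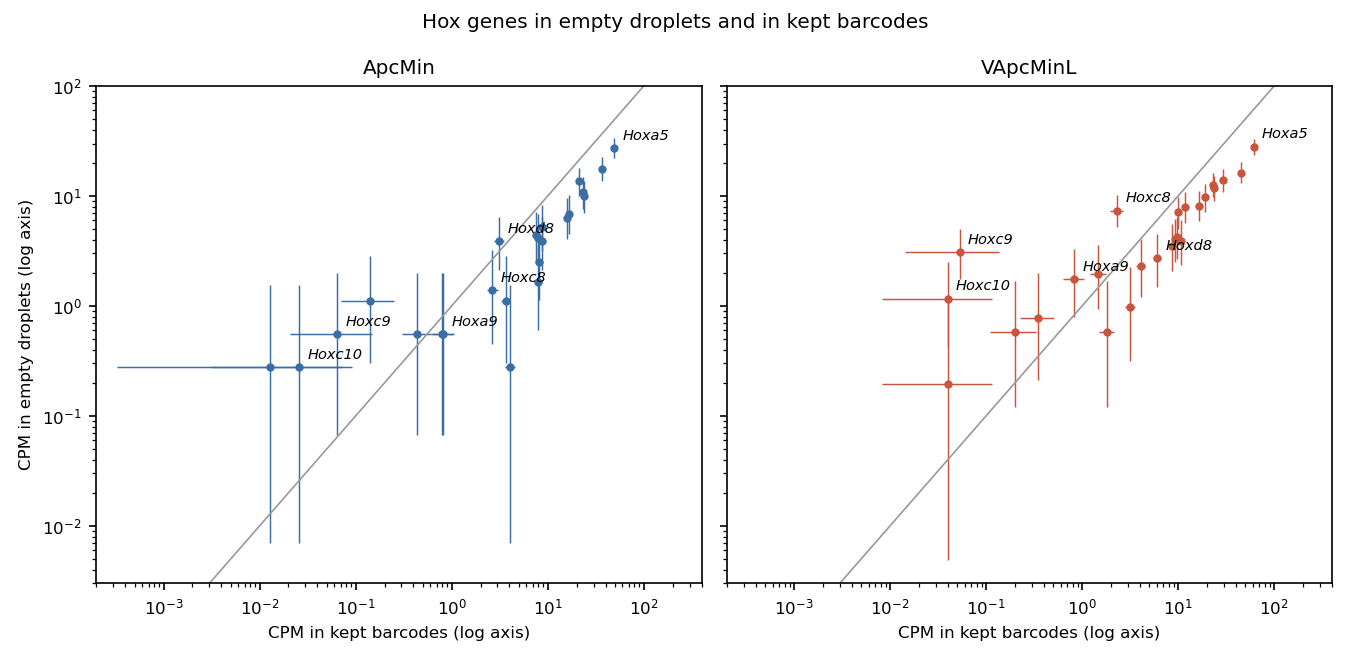
Level of Hox genes of paralogs 2 to 13 in empty droplets against their level in kept cells, in CPM on log axes, for ApcMin (left) and VApcMinL (right); bars are exact Poisson 95% intervals, the line marks equal levels, and genes with 0 UMIs in either are not drawn. Hoxc8, Hoxc9 and Hoxc10 of VApcMinL lie above the line, at 7.37, 3.102 and 1.16 CPM in empty droplets. Hoxd3, Hoxa9, Hoxd9, Hoxa10 and Hoxd10 of VApcMinL also lie above it.

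The cofactors that bind DNA with Hox proteins were at similar levels in the fibroblast-like cells of both libraries. Of 9 cofactor genes, 8 were tested and 0 were past 2-fold either way, beside 2.5% higher and 0.866% lower among all genes tested. The median log2 ratio of the 8 was 0.10. Meis2, a main partner of Hox proteins, had 253 CPM (248 to 258) in ApcMin and 242 (238 to 247) in VApcMinL, and Meis1 had 104 (101 to 107) and 117 (113 to 120.3). The 6 chromatin regulators of Hox clusters were all tested, with 0 past 2-fold, beside the same shares, and a median of 0.08. Kmt2a, which keeps Hox genes active, had 155 CPM in ApcMin and 172 in VApcMinL, and Ezh2, the Polycomb methyltransferase that silences them, had 16.4 and 20.1. None of the tested genes of either list thus passed 2-fold, as was so for most of the genes tested.

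The tested noncoding RNAs of the Hox clusters all had ratios above 1 over the class, as had 5746 of the 11552 genes tested. Of 10 listed, 7 were found, 4 were tested, and 0 passed 2-fold, beside 2.5% higher and 0.866% lower among all genes tested, with a median log2 ratio of 0.63. Hotairm1, which lies in the Hoxa cluster, had 34.5 CPM (32.8 to 36.3) in ApcMin and 58.5 (56.1 to 60.9) in VApcMinL, a ratio of 1.69 (1.59 to 1.81). Hoxaas3 had 5.40 CPM in ApcMin and 8.01 in VApcMinL, Hoxb3os 9.10 and 9.92, and Hoxb5os 3.84 and 6.17. Without cluster 2 the ratios were 1.49 (1.37 to 1.61) for Hotairm1, 1.38 (1.11 to 1.73) for Hoxaas3, 0.875 (0.730 to 1.05) for Hoxb3os and 1.34 (1.04 to 1.74) for Hoxb5os. Hotairm1 was thus above 1 with and without cluster 2, and Hoxb3os was not. Hotair and Hottip, which lie among the posterior genes, had 0 UMIs in the fibroblast-like cells of both libraries.

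Regulators that act upstream of Hox genes in the embryo gave a mixed picture. None of the 3 Cdx genes was tested, with 0 and 19 UMIs of Cdx1, 4 and 21 of Cdx2 and 0 and 1 of Cdx4 in fibroblast-like cells of ApcMin and VApcMinL. Cdx2, an epithelial gene of the adult gut, had 148 UMIs (28.7 CPM) in the empty droplets of VApcMinL. Of 9 retinoic acid genes, 7 were tested, 1 rose past 2-fold and 0 fell, beside 2.5% and 0.866% of all genes tested. This was Aldh1a3, which makes retinoic acid, with 153 CPM (150 to 157) in ApcMin and 427 (420 to 433) in VApcMinL, a ratio of 2.79 (2.71 to 2.87). Aldh1a2, another enzyme of that step, had 146 CPM in ApcMin and 107 in VApcMinL, and Cyp26b1, which degrades retinoic acid, had 8.17 and 10.2. Aldh1a3 was among the leading genes of cluster 2, and its ratio was 1.53 (1.44 to 1.62) within cluster 0, 1.93 (1.86 to 2.004) within cluster 2, 1.73 (1.42 to 2.102) within cluster 3 and 2.36 (2.14 to 2.59) within cluster 4. The gene thus passed 2-fold within cluster 4 only.

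Some regional factors of gut mesenchyme passed the fold rule, while no Hox gene did. Of 17 genes, 11 were tested, 1 rose and 3 fell, beside 2.5% and 0.866% of all genes tested, with a median log2 ratio of -0.26. Tbx3 rose from 12.5 CPM (11.4 to 13.6) in ApcMin to 25.5 (24.0 to 27.1) in VApcMinL. Barx1 fell from 37.8 CPM (36.0 to 39.7) to 2.19 (1.75 to 2.71), and Isl1, a factor of the pyloric mesenchyme, from 26.7 (25.2 to 28.3) to 6.86 (6.07 to 7.73). Six2, a factor of the same region, fell from 11.0 CPM (10.1 to 12.1) to 0.842 (0.579 to 1.18). Nkx2-3, needed for the midgut mesenchyme and its vessels, had 130.2 CPM in ApcMin and 221 in VApcMinL, and Foxf1 had 63.1 and 101.8, neither past 2-fold. Within clusters 0, 2, 3 and 4 the ratio of Barx1 was 0.0977, 0.0743, 0.0517 and 0.201, that of Isl1 0.247, 0.272, 0.358 and 2.11 (1.03 to 4.56 in cluster 4, from 12 and 27 UMIs), and that of Tbx3 3.82, 1.28, 0.654 and 1.52. Six2 had 17 and 0 UMIs in cluster 2, and ratios of 0.107, 0.0848 and 0.468 (0.0423 to 3.27) in clusters 0, 3 and 4. Barx1 was thus lower in VApcMinL in each cluster and Isl1 in 3 of them, while Tbx3 passed 2-fold higher in cluster 0 only.

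Epithelial genes of gut regions were mostly low in fibroblast-like cells, and free epithelial RNA was higher in VApcMinL. Of 11 stomach genes, 1 was tested and rose (beside 2.5% of all genes tested), Tff2, with 1.62 CPM (1.27 to 2.05) in ApcMin and 3.78 (3.19 to 4.44) in VApcMinL. Of 6 proximal small intestine genes, 3 were tested and 2 rose, beside the same 2.5%. These were Fabp1, from 3.93 CPM to 77.0, and Cybrd1, from 3.91 to 8.47, while Slc40a1, which macrophages also use, had 23.5 and 42.3. Within clusters 0, 2, 3 and 4 the ratio of Tff2 was 6.21, 0.969, 1.23 and 0.374, that of Cybrd1 7.20, 1.17, 2.35 (0.748 to 8.03) and 0.872, and that of Fabp1 24.2, 7.13, 37.4 and 29.5. Fabp1 was thus higher in VApcMinL in each cluster, and Tff2 and Cybrd1 had an interval above 1 in cluster 0 only. In empty droplets Fabp1 was at 149 CPM in ApcMin and 3745 CPM in VApcMinL. None of the 3 ileum or 4 colon genes had enough UMIs to be tested. All 9 epithelial markers were found, and their summed level in fibroblast-like cells was 14.1 CPM in ApcMin and 98.1 in VApcMinL, with Lgals4 highest and none at 0, and in empty droplets 466 and 3906 CPM. The part of this RNA in the listed genes was not tested.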

How the data were processed

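Stromal cells of 2 lamina propria libraries were measured by 3′ single-cell RNA sequencing. The authors counted UMIs with Cell Ranger, and the deposited values are raw counts of UMIs per gene and barcode, with no normalization or cell filter. The submitters' processing notes name Cell Ranger 2.1.1 and Seurat 3.1.1 and the builds mm10 and GRCm38, while the headers of the deposited matrices name a later Cell Ranger release. Genes were placed with GENCODE on GRCm38, where 39 of the 40 identifiers matched, and promoters came from RefSeq.

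Barcodes with at least 3000 UMIs and at most 20% mitochondrial UMIs were kept. Libraries were integrated by canonical correlation in Seurat 5.3.0 (R 4.3.3, Matrix 1.6.5) on 1568 variable genes without Hox genes, with 20 principal components, 20 neighbours and Louvain resolution 0.2. Clusters were named from 133 markers of 17 classes, all found in the files. A cluster was named from 3 markers among its 10 genes of highest fold (pseudocount 0.1), or else from detection, by the class whose markers had the largest mean difference in the percent of cells. At least 3 markers, or 80% where none led, had to be detected in at least 25% of cells. A cluster without 3 leading markers stayed unnamed where another class led with more of its markers or had a difference of 40 points or more. These thresholds were set after the clusters were seen. No doublets were removed, and removal by Scrublet score (scanpy 1.11.5) was an alternative.

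For each library, the UMIs of a class were added up and divided by the class total. Sums have exact Poisson, shares exact Clopper-Pearson and ratios exact conditional binomial intervals at 95%, and a count of 0 was given a limit of 3 counts. The interval of a mean paralog number treats UMIs as independent. Named are the Hox genes with at least 200 UMIs over both libraries in fibroblast-like cells, except for an item that is not reported here, those under it by their UMIs, the largest and smallest ratio in each cluster, and genes of the lists of cofactors, Cdx genes, regional factors, retinoic acid genes, chromatin regulators, noncoding RNAs and epithelial genes of 4 gut regions. Hox genes named in other classes, in unnamed clusters, in empty droplets and in the splits by Hoxc8, Hoxb8, Hoxd8 and Barx1 were chosen after their values were seen, as were the list genes given within clusters or without cluster 2 and the barcodes left out of epithelial-like cells. The members and lists were chosen with earlier results of these data known. The calculations were tested on simulated data. Python 3.11.15, NumPy 2.4.6, SciPy 1.17.1 and matplotlib 3.10.9 were used.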

Additional observations from a re-analysis of the deposited data

Results flagged for a closer look

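In the empty droplets of VApcMinL, Hoxc9 reached 3.102 CPM (1.77 to 5.04), 58.6 times its level in kept cells, which rests on 4 UMIs there. Hoxc10, a gene of the lumbar trunk, reached 1.16 CPM (0.427 to 2.53) in these droplets from 6 UMIs, with 3 UMIs in kept cells, too few for a fold to be given. Both stood out as signals in data outside the main measurement, by a rule of more than 3 UMIs and a point value more than 10 times that of cells. In ApcMin the empty droplets held 2 Hoxc9 UMIs and 1 Hoxc10 UMI. The source of these UMIs was not tested.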

How the results depend on the processing

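Pairing was not possible, as there is 1 library for each genotype. Among the genes tested, the number of Hox genes past 2-fold lower was 0 in each of the alternatives of this paragraph. Single named Hox genes, tested or not, had log2 ratios between -1.72 and 1.13 under these alternatives. The log2 ratio of the summed Hox level kept its sign under them, between 0.22 and 0.56. At most 10% mitochondrial UMIs, 1% of barcodes left out at each end of detected genes, clusters at resolution 0.5 and genes with at least 1000 UMIs left the values of fibroblast-like cells within their intervals. With a minimum of 1500 UMIs and new clusters, the Hox level of fibroblast-like cells was 457 CPM in VApcMinL and the log2 ratio 0.28, and with a minimum of 6000 UMIs the level in VApcMinL was 437 CPM. Defined by a Pdgfra UMI and no UMI of Ptprc, Pecam1, Epcam or Hbb-bs, only 18 ApcMin and 420 VApcMinL cells were left, since 99.4% and 86.4% of fibroblast-like cells had an Hbb-bs UMI. The level was then 300.6 CPM in ApcMin, the mean paralog number 4.25 and 4.31, the posterior share 0% and 0%, the share of cells with a Hox UMI 44.4% and 64.8% and the log2 ratio 0.56, with 1 gene (Hoxa5) past 2-fold higher and Hoxc6 turned to -0.25. As a mean over cells, the level was 390.5 CPM in ApcMin and 480.1 in VApcMinL, the mean paralog number 4.25 in ApcMin and the log2 ratio 0.30. Thinned cells gave 388 and 479 CPM, a mean paralog number of 4.24 in ApcMin and a log2 ratio of 0.31, and with all UMIs 94.6% and 94.3% of cells had a Hox UMI. With 5% free RNA subtracted, the level was 391 and 463 CPM, the posterior share 0.0553% in VApcMinL, plasma-like cells had 1.65 and 9.76 CPM, erythroid-like cells 0.0694 and 3.43, and epithelial-like cells of VApcMinL 19.5. Neither the mean over cells nor the subtraction gives a share of cells. With genes of at least 50 UMIs, 1 gene (Hoxa6) was past 2-fold higher, and at a fold of 1.5, 1 gene. The share of all genes past the fold under the alternatives of this paragraph is not given. The counts of Hox genes past it are therefore not read as particular to Hox genes. Without the highest Scrublet scores (348 and 345 barcodes), plasma-like cells had 3.36 and 10.6 CPM, T or ILC-like cells 39.3 and 25.2, myeloid-like cells 49.7 and 65.4, and in VApcMinL B-like cells 22.8 and epithelial-like cells 22.4.

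The alternatives that follow here, by cluster, were chosen after seeing the data. The log2 ratio of the summed level was 0.0653 in cluster 0, 0.31 in cluster 2, 0.0778 in cluster 3, -0.12 in cluster 4, 0.0355 without cluster 2 and 0.11 with clusters at equal weight. Of the genes whose interval excluded a ratio of 1, the sign turned without cluster 2 for Hoxa4 (-0.0510), Hoxc4 (-0.14), Hoxc6 (-0.17) and Hoxd8 (-0.0456), and at equal weight for Hoxa4 (-0.15). Over the alternatives of the preceding paragraph, of 167 values for the named Hox genes, 151 stayed within their interval, 15 moved and 1 turned, where a gene could count as turned only if its interval excluded a ratio of 1. The cause was not tested, except that leaving out cluster 2 removes the cluster with the highest Hox level and that a lower minimum or fold admits more genes. No posterior gene had 200 UMIs in fibroblast-like cells, so none was tested there, and the part of depth in this was not tested. With 1 library per genotype, a difference between genotypes and one between libraries cannot be told apart.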
